A study of Mus musculus with 4 samples.

Results

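Endothelial cells form the single-cell lining of the aorta and of the small vessels that supply its wall. They are told apart from smooth muscle cells and fibroblasts by junction and surface proteins, by receptor tyrosine kinases for VEGF and angiopoietin, by stored von Willebrand factor and by an enzyme that makes nitric oxide. Several of these genes are also read as markers of the state of the lining, since loss of junctions or of nitric oxide synthesis accompanies vessel injury.

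The set described here holds 10 genes that mark this cell type: Pecam1, Cdh5, Cldn5 and Emcn at the surface and junctions, the receptors Kdr, Tie1 and Tek, the secreted Vwf, the enzyme Nos3, and the transcription factor Sox17. They are 10 of the 37074 gene names on the array. A probe was taken as a member when its gene name on the array was one of these 10, which gave 16 probes. The rule uses gene names and no measured value, although the set was drawn up with earlier results of these data known.

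RNA of the abdominal aorta of male mice aged 12 weeks was measured on 4 Agilent arrays in 1 colour, 4 weeks after an operation in which CaPO4 was applied. Calcium phosphate applied to the outside of the vessel is a model of aneurysm and calcification. The 2 groups had 2 arrays each: wild type (replicates 2 and 3, called W2 and W3) and SR-A1-/- (replicates 4 and 5, called K4 and K5). SR-A1-/- mice lack scavenger receptor A1, encoded by Msr1, which is mainly a macrophage receptor. Both groups had the operation, and no array from an aorta without it was analysed here. The labels do not say whether an array holds RNA of 1 mouse or of several, so a p-value here covers the spread among these 4 arrays, which may be technical.

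The arrays fell into pairs by brightness, with a 75th percentile intensity of 132 on W2, 220 on W3, 245 on K4 and 133 on K5. Each value below is the log2 intensity minus the array's own log2 75th percentile, so 0 is the level of that percentile, and a difference of 1 is a 2-fold difference. Values of different genes come from different probes and were not set against each other. Between 57.6% and 62.6% of probes were well above background on an array. Msr1 itself went against the labels. Its brightest probe read -5.30 on W2, where it was not well above background, -2.10 on W3, -1.26 on K4 and -2.09 on K5. The other tested probe of Msr1 read -6.40 on W2, -2.12 on W3, -1.50 on K4 and -1.38 on K5. It was well above background on 3 of the 4 arrays. The labels do not give the deleted part of Msr1, so it is not known whether either probe lies in it. The groups are therefore named below as the labels have them. Every direction below is that of the arrays labelled SR-A1-/- relative to the arrays labelled wild type.

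All 10 genes had a probe well above background on all 4 arrays, so the defining markers of the cell type were present in every sample. Of the 16 probes, 13 were tested and 3 were not, and for each gene the brightest tested probe stood for it. The probe sequences below, from the array files, show what was hybridised for genes on which a result turns: the only probe of Pecam1, the only probe of Tie1, and the tested probes of Sox17, which gave different patterns. Of the Sox17 probes, that from base 2320 was dim. Positions are those of the array design on mm9, all 4 probes lie in transcribed exon sequence on the minus strand, and no base is marked.
Pecam1, NM_001032378 from base 2242, chr11:106540864-106540923: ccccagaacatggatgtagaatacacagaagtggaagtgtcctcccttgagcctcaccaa
Tie1, NM_011587 from base 3483, chr4:118144132-118144191: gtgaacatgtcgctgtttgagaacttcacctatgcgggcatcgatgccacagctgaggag
Sox17, NM_011441 from base 3130, chr1:4481890-4481949: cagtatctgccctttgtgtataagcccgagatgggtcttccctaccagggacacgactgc
Sox17, NM_011441 from base 2320, chr1:4482700-4483190: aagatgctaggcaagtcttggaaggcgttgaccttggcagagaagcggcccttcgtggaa
The last probe has 60 bases but covers 491 bases of the genome, so it spans an intron.

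None of the 10 endothelial genes passed the test between the groups (limma, adjusted p under 0.05, Benjamini-Hochberg over 22498 genes). No gene of the whole array passed it either, so the share called was 0%. Single arrays decided that count: without W2 there were 260 genes called and without W3 there were 371, the members called being 0 in each case. The lowest adjusted p of a member in limma was 0.911, and 0 of the 10 had an unadjusted p under 0.05, beside 3.84% of all genes higher and 2.45% lower at that level. In 4 genes (Vwf, Emcn, Tek and Pecam1) both arrays labelled SR-A1-/- read higher than both arrays labelled wild type, and in 1 gene (Kdr) both read lower. Of all genes tested, 16.1% stood apart in this way in the higher direction and 13.7% in the lower direction. Without W2 the first count was 7, where 36.2% of all genes stood apart in that direction, and without W3 the second was 3, where 31.7% did. The differences ran from -0.51 for Cldn5 to 1.28 for Vwf, with a median of 0.32, where the median of all genes was -0.01. Of the genes that stood apart only Vwf differed at least 2-fold, 1 of 10 members, beside 3.96% of all genes in the higher and 2.44% in the lower direction. In both directions together the groups stood apart in 50% of the members and in 29.8% of all genes, a count of 5 genes of which Tek was apart by 0.01, and nothing particular to the set is read from it. Aorta is a mixture of cell types. A change in the number of endothelial cells and a change in RNA per endothelial cell cannot be told apart in such samples.

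**Figure D1:**
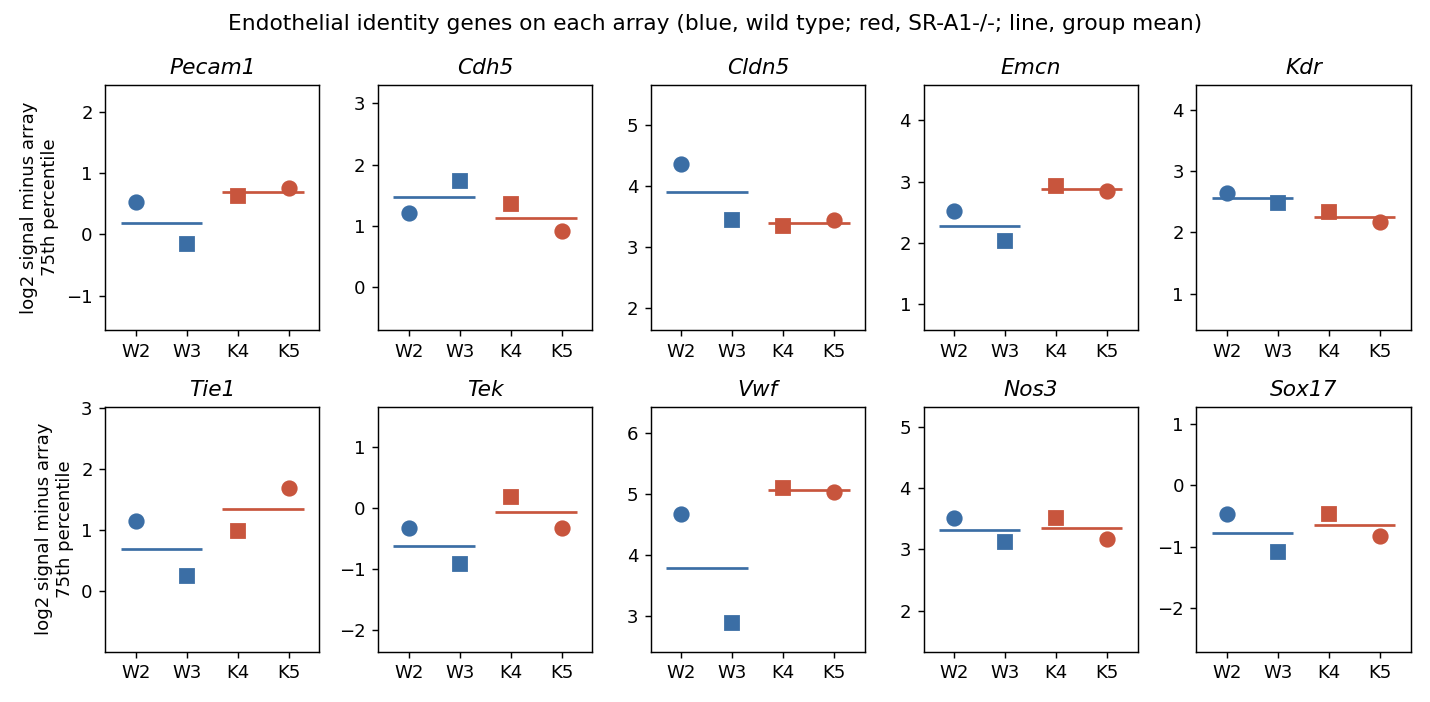
Level of each of the 10 endothelial genes on each array (vertical axis, log2 intensity relative to the array's 75th percentile; blue, labelled wild type; red, labelled SR-A1-/-; circles, the dimmer arrays W2 and K5; squares, the brighter arrays W3 and K4; bars, group means). Vwf shows the widest gap within a group, from 4.67 on W2 to 2.90 on W3, while K4 and K5 lie close together at 5.10 and 5.03.

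Pecam1 encodes the adhesion protein CD31 of endothelial contacts, which leukocytes and platelets also carry. It read 0.54 on W2, -0.16 on W3, 0.63 on K4 and 0.75 on K5. The arrays labelled SR-A1-/- were both above W2, but only a little, and W3 was the array that stood apart. The difference was 0.50 ± 0.35 (SE, n = 2 arrays a group, limma adjusted p = 1), with a 95% interval from -0.40 to 1.41. The probe lies on chromosome 11.

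Cdh5 encodes VE-cadherin, the adhesion molecule of endothelial adherens junctions. Its levels were 1.21 on W2, 1.73 on W3, 1.36 on K4 and 0.91 on K5. W3 was highest and K5 lowest, and the groups overlapped. The difference was -0.33 ± 0.35 (SE, limma adjusted p = 1), so Cdh5 and Pecam1 had differences of opposite sign, and the 95% interval of each included 0. The probe lies from base 3742 of NM_009868, on the plus strand of chromosome 8 (106668159 to 106668218, mm9).

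Cldn5 encodes claudin-5, a tight junction protein of endothelium. It read 4.36 on W2, 3.44 on W3, 3.35 on K4 and 3.44 on K5. Here W2 was alone in being high, and W3, K4 and K5 lay close together. The difference of -0.51 ± 0.40 (SE, limma adjusted p = 1) was the lowest of the 10 genes and became -0.04 when W2 was left out.

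Emcn encodes endomucin, a mucin-like surface glycoprotein best known from veins and capillaries. Its levels were 2.53 on W2, 2.03 on W3, 2.92 on K4 and 2.84 on K5. Both arrays labelled SR-A1-/- were above both labelled wild type, and W3 was again lowest. The difference was 0.61 ± 0.32 (SE, limma adjusted p = 0.948), with a 95% interval from -0.21 to 1.42.

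Kdr encodes VEGF receptor 2, the main signalling receptor for VEGF-A in endothelium. Its levels were 2.64 on W2, 2.48 on W3, 2.34 on K4 and 2.17 on K5. The order followed the groups, but the steps were small, and the difference was -0.30 ± 0.28 (SE, limma adjusted p = 1), with an interval from -1.03 to 0.42. The gene has 2 more probes, one for a shorter transcript and one for an mRNA that encodes the soluble form of the receptor (EU884114). Neither was well above background on any array, so the value given is that of the full-length transcript NM_010612.

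Tie1 encodes an orphan-like receptor that pairs with Tek and modulates its signal. It read 1.14 on W2, 0.24 on W3, 0.98 on K4 and 1.69 on K5. K5 was highest and W3 lowest, and K4 lay below W2, so the groups overlapped. The difference was 0.64 ± 0.45 (SE, limma adjusted p = 1), with a 95% interval from -0.53 to 1.82. Within the dimmer arrays K5 exceeded W2 by 0.55, and within the brighter arrays K4 exceeded W3 by 0.74. Fitted with the brightness pair as a block, Tie1 was the only member with an unadjusted p under 0.05 in limma (adjusted p = 0.361). In that fit 12.5% of all genes had such a p, so 1 of 10 members is no more than the background.

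Tek encodes Tie2, the receptor of the angiopoietins. Its levels were -0.33 on W2, -0.91 on W3, 0.17 on K4 and -0.32 on K5. The groups stood apart by only 0.01, the step from W2 to K5, and the difference of 0.55 ± 0.36 (SE, limma adjusted p = 1) came mainly from the step of 1.08 from W3 to K4.

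Vwf encodes von Willebrand factor, the large glycoprotein that endothelial cells store and release to bind platelets. It had the largest difference of the 10 genes. Its intensity at the tested probe was 3358 on W2, 1641 on W3, 8414 on K4 and 4332 on K5, and relative to each array's percentile it read 4.67, 2.90, 5.10 and 5.03. The arrays labelled SR-A1-/- were 0.07 apart, those labelled wild type 1.77 apart, and W2 lay only 0.36 below K5. The difference was 1.28 ± 0.62 (SE, a 2.43-fold difference, limma adjusted p = 0.911), with a 95% interval from -0.33 to 2.89. Without W3 it was 0.40, and without W2 it was 2.17 (limma adjusted p = 0.0654). In those fits the lone array is assumed to vary like the others.

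The gene has 3 probes along its transcript, and all were tested. The probe from base 8687 of NM_011708 stood for the gene, and those from base 1800 of ENSMUST00000112253 and base 2045 of ENSMUST00000139678 lie further 5′ (chromosome 6, plus strand). The probe from base 1800 read -1.87 on W2, -3.36 on W3, -1.45 on K4 and -1.47 on K5, a difference of 1.15 ± 0.56 (SE, in the fit over single probes). The probe from base 2045 read -0.10, -1.78, 0.02 and -0.20, and its groups overlapped. All 3 probes were lowest on W3, and none separated W2 from the arrays labelled SR-A1-/- by as much as it separated W2 from W3.

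**Figure D2:**
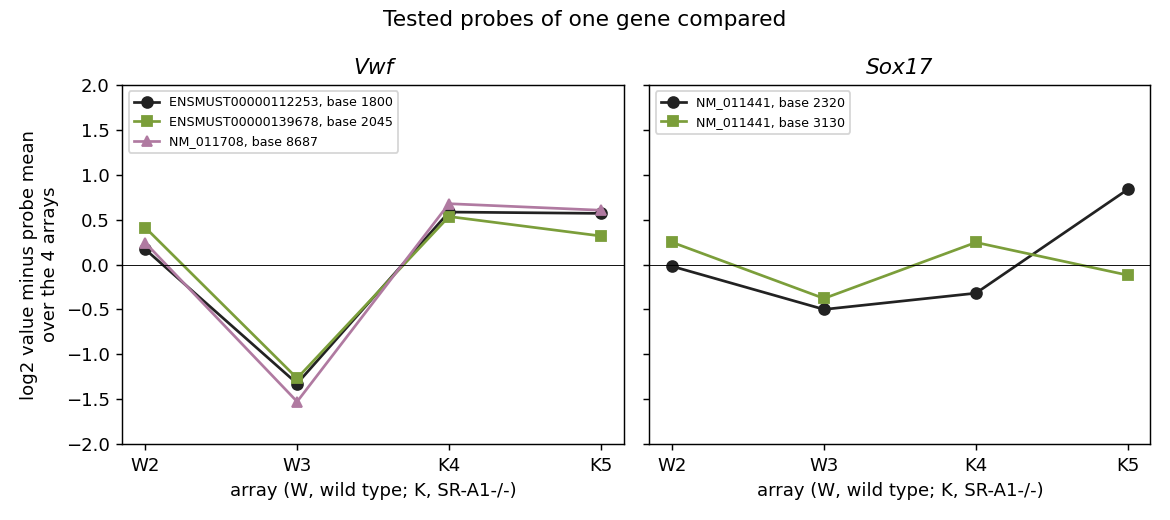
Level on each array of the tested probes of Vwf (left) and Sox17 (right), as log2 value minus the probe's mean over the 4 arrays; lines join the values of 1 probe, named by its transcript and first base. The 3 Vwf probes share their low point on W3. The Sox17 probe from base 2320, which is dim, is highest on K5, and the one from base 3130 is below its mean there.

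Nos3 encodes endothelial nitric oxide synthase. Its levels were 3.52 on W2, 3.12 on W3, 3.52 on K4 and 3.17 on K5. W2 and K4 were nearly equal, as were W3 and K5, and the groups overlapped fully. The difference was 0.03 ± 0.32 (SE, limma adjusted p = 1), with a 95% interval from -0.79 to 0.85, and under median scaling the difference was -0.023. A difference inside that interval is not excluded by these 4 arrays.

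Sox17 encodes a SOX factor of arterial endothelium. The probe from base 3130 read -0.47 on W2, -1.09 on W3, -0.47 on K4 and -0.83 on K5, with groups that overlapped and a difference of 0.13 ± 0.36 (SE, limma adjusted p = 1). The intron-spanning probe from base 2320 read -4.40, -4.88, -4.70 and -3.55, was not well above background on W2, and gave 0.52 ± 0.51 (SE, in the fit over single probes). On W3 and K4 that dim probe lay close to the lowest signal called above background there (-4.99 and -5.03). Both probes were lowest on W3, but the array with the highest value differed between them. The third probe, from AK051370, has coordinates on the opposite strand and was not well above background on any array.

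The pattern that most members shared was not the split between the groups but a low value on 1 array labelled wild type. W3 was the lowest of the 4 arrays for 7 of the 10 genes: Pecam1, Emcn, Tie1, Tek, Vwf, Nos3 and Sox17. Cdh5 was highest there, Kdr was second highest, and Cldn5 was close to K4 and K5. How many of all genes were lowest on W3 was not counted. In lists described below, 13 of 20 surface and junction genes and 6 of 8 fibroblast genes were lowest there. For transcription factors it was 3 of 16, and for smooth muscle genes 0 of 8. The count of 7 is therefore not read as particular to the members. The members' median deviation from their own 4-array means was 0.16 on W2, -0.47 on W3, 0.19 on K4 and -0.05 on K5. Between W2 and W3, both labelled wild type, the members' median absolute difference was 0.60, against 0.43 over all genes. Between W2 and K4, arrays of different groups, it was 0.23 against 0.40, and between W3 and K4, which all genes placed close together (0.30), it was 0.68.

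The group difference of the set therefore depended on W3. Between the dimmer arrays, K5 minus W2, the members' median was -0.14, and between the brighter arrays, K4 minus W3, it was 0.68. With W3 left out, the median over the members was 0.04 in place of 0.32, Vwf was 0.40 in place of 1.28, Emcn 0.35 in place of 0.61, Tie1 0.19 in place of 0.64, Tek 0.26 in place of 0.55 and Pecam1 0.16 in place of 0.50. Cldn5 went the other way, to -0.97, and Cdh5 was -0.07. With W2 left out, the median was 0.64, Pecam1 was 0.85, Tie1 1.09 and Cdh5 -0.60. With K4 left out, the median was 0.12 and Cdh5 was -0.56. With K5 left out, the median was 0.30, Tie1 was 0.29 and Cdh5 -0.11. Leaving out K4 gave 0.999 for Tie1 and 0.30 for Tek. Nos3 and Sox17 changed sign, to -0.17 and -0.18 without W3 and to -0.14 and -0.05 without K4.

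**Figure D3:**
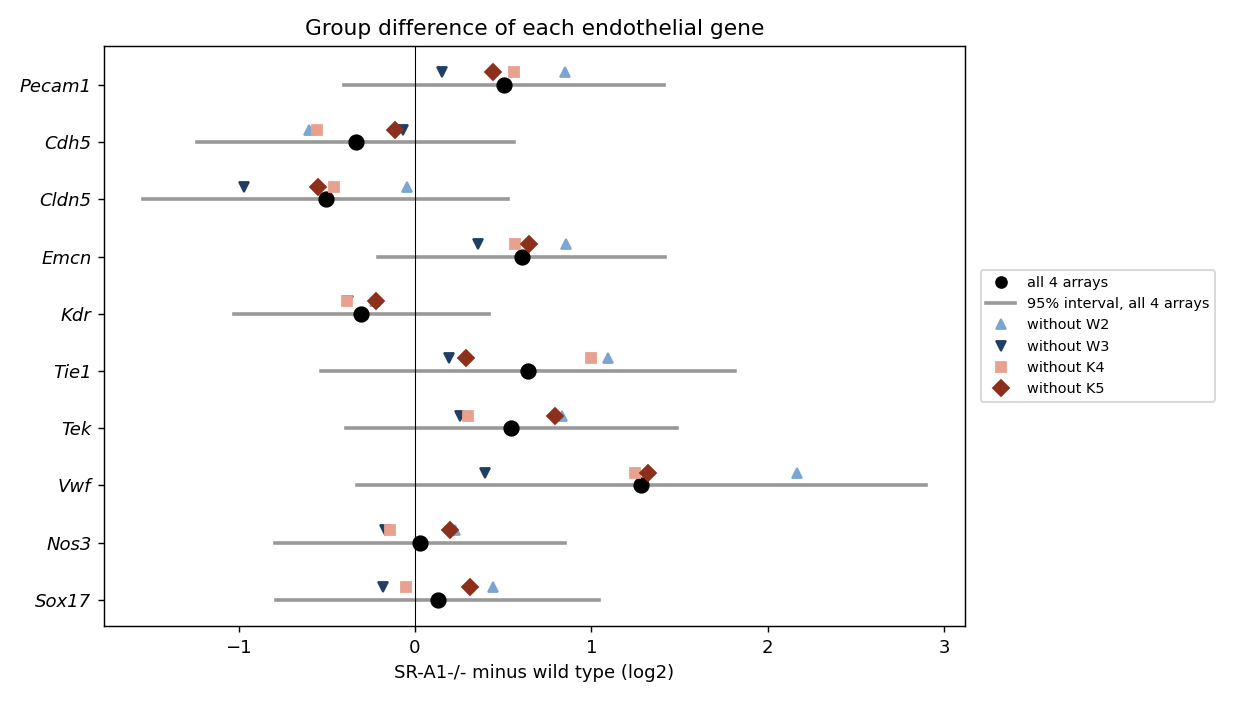
Difference between the groups for each endothelial gene (horizontal axis, log2, labelled SR-A1-/- minus labelled wild type). Black points are the values from all 4 arrays with 95% intervals, which all include 0, and coloured marks are the values with 1 array left out; without W3 the Vwf difference is 0.40.

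Among 127 genes of the endothelial lists, Mmrn2, Ecscr, Ackr1, Ephb4 and Nosip were nearest to the members' median 4-array pattern by root mean square distance. Nosip comes from the nitric oxide list. The distance ran from 0.10 for Mmrn2 to 0.13 for Nosip on the log2 scale. Mmrn2, an extracellular matrix protein of endothelium, read 4.36 on W2, 3.84 on W3, 4.41 on K4 and 4.00 on K5. Ecscr, an endothelial surface protein, read 1.44, 0.90, 1.68 and 1.52. Both were lowest on W3, which the choice by likeness to the members' pattern fixes.

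RefSeq promoter windows (GRCm38.p6) were at hand for 5 of the 10 genes. The 250 bases before the start of 3 genes are given here because their groups stood apart, Emcn and Tek in the higher and Kdr in the lower direction. Capitals mark matches on either strand to a motif searched. AGGAAG is a core bound by ETS factors. AACAAT is one bound by SOX factors. The third motif, AGATAA, is bound by factors of the GATA family.
Emcn, chr3:137340828-137341077, plus strand: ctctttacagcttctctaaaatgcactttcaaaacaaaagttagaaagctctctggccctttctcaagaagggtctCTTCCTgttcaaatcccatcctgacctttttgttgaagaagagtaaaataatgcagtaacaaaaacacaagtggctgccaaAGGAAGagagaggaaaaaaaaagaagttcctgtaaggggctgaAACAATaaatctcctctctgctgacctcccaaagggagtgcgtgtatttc
Tek, chr4:94739039-94739288, plus strand: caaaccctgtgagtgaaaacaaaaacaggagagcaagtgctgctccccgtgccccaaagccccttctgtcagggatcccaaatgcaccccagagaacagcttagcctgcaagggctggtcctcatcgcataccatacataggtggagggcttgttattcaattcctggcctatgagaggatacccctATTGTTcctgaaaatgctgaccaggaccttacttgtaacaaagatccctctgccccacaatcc
Kdr, chr5:75978456-75978705, minus strand: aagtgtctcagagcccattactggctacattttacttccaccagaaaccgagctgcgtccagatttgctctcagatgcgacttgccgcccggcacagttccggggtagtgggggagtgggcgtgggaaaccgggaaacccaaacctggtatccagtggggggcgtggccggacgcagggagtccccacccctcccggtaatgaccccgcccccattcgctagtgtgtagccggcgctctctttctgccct
The Emcn window holds the ETS letters 174 and 93 bases before the start and the SOX letters 50 bases before it. The Tek window holds the SOX letters 63 bases before the start, and the Kdr window holds none of the 3 motifs. Among the other windows, that of Tie1 holds the ETS letters 219 bases before the start, and that of Cldn5 holds none. No matches overlapped. Over 32851 windows of the same length, 29.5% hold AGGAAG, 9.99% AGATAA and 9.42% AACAAT, so single matches of this kind are common, and they describe letters only.

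The ligands and partner receptors of Kdr showed no common direction. In the VEGF list 0 of 9 genes passed the test in limma, and 0 had an unadjusted p under 0.05. In the higher direction 2 stood apart and in the lower 0, and the median difference was close to 0. Of all genes, 16.1% stood apart in the higher and 13.7% in the lower direction, and 3.84% and 2.45% had such a p. The counts of every list below are to be read beside these shares, and no list was tested as a set. Vegfa, the main ligand of Kdr, read 0.43 on W2, 2.32 on W3, 1.28 on K4 and -0.83 on K5. W3 was highest and K5 lowest, the same order as for Cdh5, and the difference was -1.15 ± 0.94 (SE). Flt1, a receptor that also binds VEGF-A, followed that order too, with 2.39, 3.37, 2.72 and 2.29. The lymphatic ligands Vegfc (0.59 ± 0.28) and Figf (VEGF-D, 0.44 ± 0.28) were the genes that stood apart. The remaining differences were 0.42 ± 0.60 for the receptor Flt4, 0.17 for Nrp1, -0.01 for Nrp2 (0.053 in the deposited table and 0.048 after quantile normalisation), -0.15 for Vegfb and about 0 for Pgf. The Nrp1 and Nrp2 probes differed in direction, with -0.15 and 0.19 when all tested probes were averaged.

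The median difference of the genes around Tie1 and Tek lay further from 0, at 0.37. In the angiopoietin list 0 of 8 genes passed the adjusted test in limma, and 2 had an unadjusted p under 0.05, both higher. In the higher direction 3 stood apart and in the lower 0, beside 16.1% and 13.7% of all genes. Svep1, a large extracellular matrix protein that binds Tie1, read 3.49 on W2, 3.19 on W3, 4.44 on K4 and 4.37 on K5. Both arrays labelled SR-A1-/- were clearly above both labelled wild type, and the difference of 1.07 ± 0.29 (SE, limma adjusted p = 0.582) was between 0.92 and 1.28 under every alternative run. Svep1 is made mainly by cells other than endothelium. Dok2, an adaptor that binds activated Tek and is also found in blood cells, read -0.03, 0.78, 1.84 and 1.25, a difference of 1.17 ± 0.42 (SE, limma adjusted p = 0.745). Angptl1 stood apart at 0.64 ± 0.28. The ligands of Tek were 0.27 ± 0.44 for Angpt1, 0.06 ± 0.49 for Angpt2 and -1.20 ± 0.64 for Angpt4. The phosphatase Ptprb, which dephosphorylates Tek, was 0.47 ± 0.37, and the Tek-binding protein Tnip2 was 0.08 ± 0.28.

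**Figure D4:**
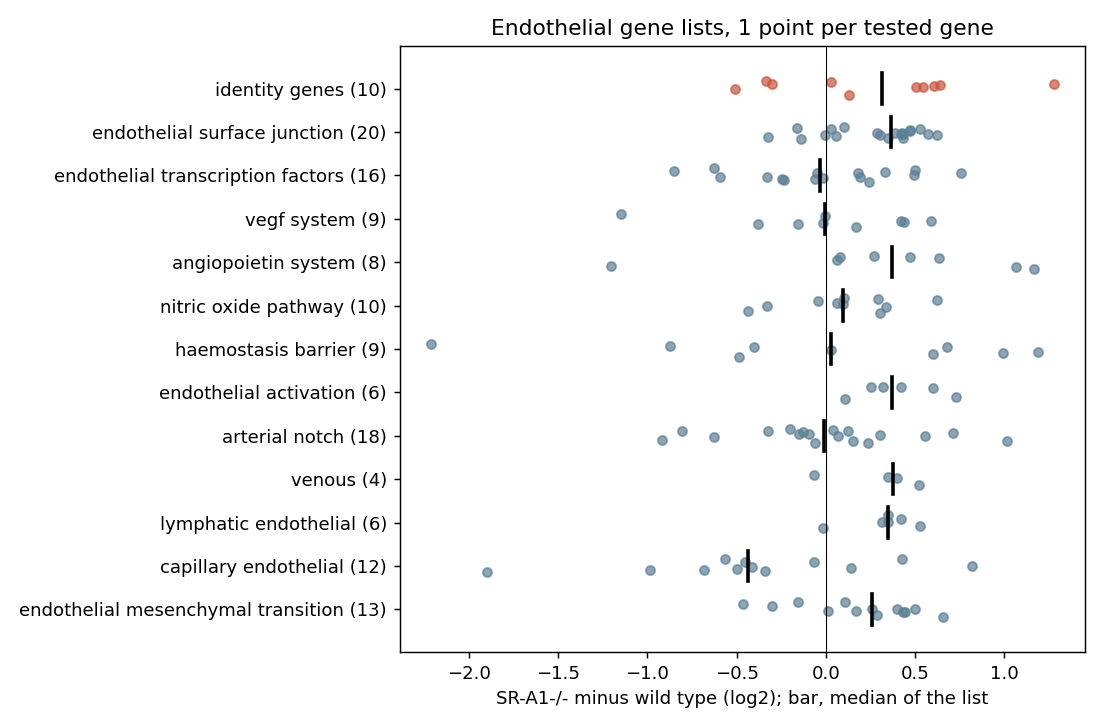
Differences between the groups (horizontal axis, log2, labelled SR-A1-/- minus labelled wild type), 1 point per tested gene and 1 line per list, with the number of tested genes in brackets; red, the 10 identity genes; bars, medians. The medians range from -0.43 (capillary list) to 0.38 (venous list), and that of the identity genes is 0.32.

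Over 12 further lists of endothelial genes, 127 of 132 listed genes were tested and 0 passed the test in limma. Other cells also express some of these genes, such as Svep1, Heyl and Fabp4. At an unadjusted p under 0.05 in limma there were 2 higher and 2 lower. The groups stood apart in 27 genes in the higher and 12 in the lower direction, 30.7% of the 127 against 29.8% of all genes. Both lower counts include Proc, which was dim on both arrays labelled SR-A1-/- and is described below. The median difference of the 127 genes was 0.14, with 0.05 between the dimmer and 0.13 between the brighter arrays. The surface and junction list had a median of 0.37. In the higher direction 6 of 20 genes stood apart and in the lower 0, beside 16.1% and 13.7% of all genes. Among the 6 were the junction protein Jam2 (0.62 ± 0.30), Ramp2 of the adrenomedullin receptor (0.58 ± 0.37) and Cd93 (0.42 ± 0.30). Like the members, this list differed mainly between the brighter arrays (0.60) and hardly between the dimmer ones (0.02).

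Transcription factors of endothelium had a median of -0.03, with 2 of 16 apart in each direction. Foxc2, a forkhead factor of arteries and lymphatics, was -0.63 ± 0.28, and the blood and vessel factors Lyl1 and Tal1 were 0.76 ± 0.38 and 0.50 ± 0.29. In the nitric oxide list (10 tested of 12, median 0.10), which surrounds Nos3, 1 gene stood apart in the higher and 2 in the lower direction. Gucy1b3, a subunit of the nitric oxide receptor, was -0.44 ± 0.34. Ddah1 and Ddah2, which break down an inhibitor of nitric oxide synthases, were 0.63 ± 0.51 and 0.34 ± 0.29.

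The haemostasis list, which surrounds Vwf, had a median of 0.03, with 3 of 9 tested genes apart in the higher and 2 in the lower direction. Procr, the endothelial protein C receptor, read 2.76 on W2, 1.56 on W3, 3.38 on K4 and 2.92 on K5. It was lowest on W3 with W2 close to K5, as Vwf was, and the difference was 0.99 ± 0.49 (SE), with 0.39 without W3 and 1.60 without W2. F8, coagulation factor VIII, which circulates bound to von Willebrand factor, was 1.19 ± 0.46. Proc, protein C itself, was well above background only on W2 and W3, so it was tested only through the group where it read higher. Its place among the 2 lower genes is therefore not read as a group difference. The means gave a bound only, at least 1.70-fold lower on the arrays labelled SR-A1-/-. That bound sets the mean of W2 and W3 against K4 and K5, each taken at the higher of 2 signals. These are the probe's own signal and the lowest signal called above background. W3 read -4.84, under the lowest such signal on K5 (-4.49), so W3 and K5 cannot be ordered. The bound rests mainly on W2, at -3.15.

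Of the activation list 6 of 8 genes were tested, with a median of 0.37 and 1 gene apart. That gene was Vcam1, the adhesion molecule for leukocytes, which read 1.72 on W2, 1.53 on W3, 1.89 on K4 and 2.82 on K5. K5 alone was far above the others, and the difference was 0.73 ± 0.41 (SE). P-selectin (Selp), stored together with von Willebrand factor, was 0.60 ± 0.48, and Ackr1, a chemokine-binding receptor of venules, 0.26 ± 0.34.

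Arterial and Notch genes had a median of -0.01, with 2 of 18 apart in the higher and 3 in the lower direction. The 3 lower ones were Heyl (-0.92 ± 0.31), a Notch target, Efnb2 (-0.81 ± 0.31), the arterial ephrin, and Jag2 (-0.63 ± 0.31), a Notch ligand. Heyl read 2.41 on W2, 2.60 on W3, 1.81 on K4 and 1.36 on K5, so here the order followed the groups. Smooth muscle cells also express Heyl and Efnb2. The venous list had a median of 0.38 over 4 genes, with Nr2f2 at 0.52 ± 0.32, Vwa1 at 0.40 ± 0.33 and Ephb4 at 0.35 ± 0.29, and averaging all probes brought that median to 0.08. The lymphatic list had a median of 0.35 (-0.23 without W3) with 0 of 6 genes apart, and held Lyve1 (0.35 ± 0.32) and Prox1 (0.53 ± 0.61). Genes linked to endothelial-to-mesenchymal transition had a median of 0.26, with 4 of 13 apart in the higher and 1 in the lower direction. The shares of all genes were 16.1% and 13.7%. Among the 4 were Tgfb2 (0.66 ± 0.28), Tgfbr2 (0.50 ± 0.30) and Zeb2 (0.44 ± 0.28).

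Capillary genes were the list with the lowest median, -0.43 over 12 genes, with 1 apart in the higher and 2 in the lower direction. Summed over the list, their linear level relative to the 75th percentile was 143 on W2, 376 on W3, 364 on K4 and 59.3 on K5. This order, with W3 and K4 high and K5 lowest, crosses the groups. Fabp4 and Lpl, which adipocytes also express, made up between 67.6% and 88.4% of the sum, and without them it was 23.1, 43.6, 43.0 and 19.2. Of the 12 genes 7 were highest on W3 and 8 lowest on K5, but 3 were lowest on W3, as most of the members were. Meox2, a homeobox factor, was 0.82 ± 0.34, Timp4 -0.56 ± 0.37, and Car4, which was not well above background on K5, -1.90 ± 1.10. Gpihbp1, which carries lipoprotein lipase across capillary endothelium and was picked for this order after its values were seen, read 1.82 on W2, 2.86 on W3, 2.45 on K4 and 1.23 on K5. Rgcc, picked in the same way, read 1.84, 3.93, 3.57 and 1.37.

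Brown adipocyte genes had the same order of arrays. Their summed level was 39.5 on W2, 499 on W3, 163 on K4 and 7.69 on K5. Cidea, a lipid droplet protein, read 1.29 on W2, 6.90 on W3, 5.63 on K4 and -0.32 on K5, and Ucp1, the uncoupling protein that defines brown fat, was well above background only on W3 and K4, at 7.09 and 5.31. White adipocyte genes summed to 349, 499, 450 and 28.8, with Adipoq at 4.50, 5.24, 5.36 and -2.93 and Plin1 well above background on every array but K5. Cdh5, Vegfa and Flt1 had the highest value on W3 and the lowest on K5, as Cidea did, while Vwf, Tie1 and 5 other members were lowest on W3. The part of fat in the members' values was not tested.

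**Figure D5:**
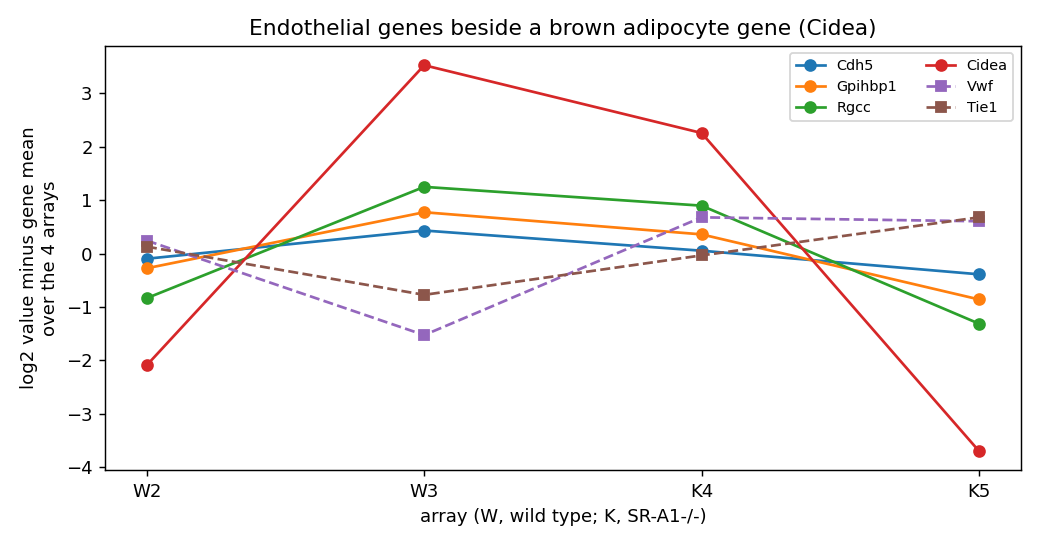
Level on each array of 5 endothelial genes and the brown adipocyte gene Cidea, as log2 value minus the gene's mean over the 4 arrays (solid lines, Cdh5, Gpihbp1, Rgcc and Cidea; dashed lines, Vwf and Tie1); the genes were chosen for display after their values were seen. Cdh5, Gpihbp1, Rgcc and Cidea are highest on W3 and lowest on K5, and Vwf and Tie1 are lowest on W3.

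Markers of other cells that share genes with endothelium also differed between arrays, and their part in the results was not tested. Pecam1 and Vwf are present in platelets. The platelet list (7 of 8 tested) summed to 6.81 on W2, 11.4 on W3, 28.4 on K4 and 16.3 on K5, with a median difference of -0.18 and 1 gene apart in each direction. Pf4 read 2.53, 3.16, 4.77 and 3.92 (1.50 ± 0.43), while Ppbp read -1.67, 0.68, -1.39 and -1.19. Pf4 made up between 78.2% and 96.2% of the sum, so the sum mainly gives the level of Pf4. Without Pf4 and Ppbp it was 0.698 on W2, 0.895 on W3, 0.686 on K4 and 0.730 on K5. Of the 7 genes, 1 was lowest on W3. Macrophage genes had a median difference of 1.16, which was 0.64 without W2 and 1.76 without W3. Of the 10 genes 5 stood apart in the higher direction and 0 in the lower, beside 16.1% and 13.7% of all genes. The macrophage sum was 168 on W2, 352 on W3, 284 on K4 and 287 on K5, so W2 was low. Cd68 read 0.75, 4.28, 3.82 and 3.51, and Adgre1 0.11, 1.61, 3.30 and 2.06. The leukocyte list had a median of 0.37 (0.0063 without K5) with 1 of 6 apart, with Ptprc at -0.01 ± 0.27 (its probes differed) and Coro1a at 1.13 ± 0.51.

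Smooth muscle genes, which define the bulk of the aortic wall, had a median difference of -0.56. Of these genes, 0 of 8 stood apart in the higher and 5 in the lower direction, beside 16.1% and 13.7% of all genes. The smooth muscle sum was 1887 on W2, 1373 on W3, 1078 on K4 and 1306 on K5. Acta2 was -0.43 ± 0.35 and Myh11 -0.50 ± 0.28, and both were well above background on all arrays. Skeletal muscle genes summed to 1313 on W2 and between 148 and 385 on the others, with a median difference of -2.06 and 1 of 8 genes apart in the higher and 5 in the lower direction. Acta1 was -1.16 ± 0.70 and Ckm -2.56 ± 1.25. The gene apart in the higher direction was Myh1, a fast myosin heavy chain named after its values were seen, at 3.63 ± 0.74 (limma adjusted p = 0.386, 0.0478 without W2 and 0.00334 without W3). The pericyte median was -0.02 (Pdgfrb 0.11 ± 0.33, Cspg4 -0.80 ± 0.30), and that of fibroblasts 0.16, which was -0.22 without W3 and -0.26 without K5 (Pdgfra 0.50 ± 0.39, Dcn 0.09 ± 0.44). Erythroid genes had 0.89 (Hba-a1 0.56 ± 0.45, Hbb-b1 1.23 ± 0.29). Mesothelium, with 3 of 6 tested, had 0.53 (Msln 0.53 ± 0.38). The fibroblast and erythroid lists had their lowest sum on W3, where most of the members were lowest. Hba-a1 made up between 85% and 90.1% of the erythroid sum. The mesothelium sum, over 3 dim genes, was nearly equal on W3 (0.250) and W2 (0.257).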

How the data were processed

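RNA of 4 mouse aorta samples, 2 labelled wild type and 2 labelled SR-A1-/-, was measured on 62976 spots an array, of which 59305 were not controls and gave 56605 probes. The processed signal, per the file headers, is a background-subtracted intensity from Agilent Feature Extraction 12.0.3.1, not normalised between arrays; the submitters' processing notes name version 10.7, and limma with no role. Mean and background intensity values and the flags of 0 or 1 are as deposited. The authors' value table, also deposited, holds log2 values.

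From these, outlier spots were left out, repeated spots were averaged, and log2 intensity minus each array's 75th percentile over probes was taken. Probes well above background on at least 2 arrays were tested (35107), and the brightest stood for its gene (22498 genes, 7972 with several tested probes). No spot was saturated (0). Groups were compared, two-sided, by limma 3.58.1 (lmFit, then eBayes) under R 4.3.3 with the package data.table (version 1.17.8), with Benjamini-Hochberg adjustment. The fit was tested on simulated data. Sequences and plots used Python 3.11.15, pandas 2.3.3 and matplotlib 3.10.9. Precision is limited by the number of arrays.

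The members and gene lists were chosen with earlier results of these data known. Named genes were the members, all tested genes of the VEGF and angiopoietin lists, the 3 smallest p-values of each other endothelial list, the first 2 genes of each other-cell list, and the 5 genes nearest to the members' pattern; Gpihbp1, Rgcc and Myh1 were added after their values were seen. The list of 1 other cell type is not reported here. Alternatives were other normalisations, background correction, filters, probe rules, variance settings, the deposited table, brightness pairs as a block, and each array left out.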

Additional observations from a re-analysis of the deposited data

How the results depend on the processing

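No paired analysis was possible because the replicate numbers in the labels differ between the groups (2 and 3 against 4 and 5). The brightness pairs used as a block are a technical grouping and pair no samples. Values below are log2 differences, labelled SR-A1-/- minus labelled wild type.

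Under 18 alternatives, 8 members kept their direction and 0 members were called. Several alternatives could not change a direction: filters and variance settings gave Pecam1 the same 0.504 as the main fit. Nos3 was -0.023 under median scaling and ranged from -0.17 to 0.23 with 1 array left out, and Sox17 from -0.18 to 0.44. The count of all genes called was 8 under quantile normalisation, cyclic loess, no filter on dim probes and the deposited table, 7 under median scaling, 5 with an intensity trend, 2 with array weights, and 0 to 371 with 1 array left out. Members apart in the higher direction numbered 3 under median scaling and cyclic loess, where 13.8% and 16.1% of all genes were. With 1 array left out they numbered 4 to 7, where 30.8% to 36.2% of all genes were. Those apart in the lower direction numbered 2 under median scaling, where 15.1% of all genes were. With 1 array left out they numbered 2 to 3, where 28.8% to 34.1% of all genes were. Members with an unadjusted p under 0.05 in limma numbered 1 with brightness as a block (12.5% of all genes) and 0 to 1 with 1 array left out (3.89% to 9.70%).

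Other genes changed sign with 1 array left out, over these ranges. They were Vegfb -0.42 to 0.12, Pgf -0.25 to 0.24, Flt1 -0.86 to 0.11, Flt4 -0.18 to 1.02, Nrp2 -0.092 to 0.067, Angpt1 -0.13 to 0.67, Angpt2 -0.40 to 0.53, Tnip2 -0.021 to 0.18, Ddah1 -0.038 to 1.29 and Selp -0.0088 to 1.22. Further ranges were Ackr1 -0.073 to 0.59, Prox1 -0.28 to 1.34, Pdgfrb -0.15 to 0.37, Dcn -0.31 to 0.49, Ppbp -1.97 to 0.38, Cd68 -0.62 to 2.91, Ptprc -0.054 to 0.034, Adipoq -7.80 to 0.49, Plin1 -7.32 to 0.62 and Ucp1 -7.74 to 5.64. The remaining genes were Cidea -4.41 to 1.54, Mmrn2 -0.16 to 0.36, Nosip -0.11 to 0.24, Gpihbp1 -1.11 to 0.11 and Rgcc -1.52 to 0.69. List medians that did so ranged, for the transcription factor list, -0.12 to 0.18, the VEGF list, -0.0047 to 0.24, the nitric oxide list, -0.050 to 0.21, the haemostasis list, -0.31 to 0.38, the capillary list, -1.27 to 0.56, the platelet list, -0.60 to 0.11, the lymphatic list, -0.23 to 0.96, the arterial list, -0.30 to 0.12, the fibroblast list, -0.26 to 0.44, the white adipocyte list, -7.40 to 0.35 and the brown adipocyte list, -3.92 to 0.24. Averaging all tested probes gave -0.15 for Nrp1, 0.19 for Nrp2 and 0.83 for Ptprc. Nrp2 was 0.048 under quantile normalisation, 0.020 under cyclic loess, 0.0096 with the percentile over probes above background on all 4 arrays, 0.020 under normexp and 0.053 in the deposited table. Ptprc was 0.025 under quantile normalisation, 0.0070 under cyclic loess, 0.013 with the percentile over probes above background on all 4 arrays, 0.023 under normexp and 0.024 in the deposited table. Pgf was 0.021 with that percentile.

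These sign changes came with fewer arrays, with differences near 0 or with averaging of all tested probes. Averaging used all 4 arrays, and its values were not all near 0. It took Ptprc from -0.01 to 0.83 and Nrp1 from 0.17 to -0.15. The cause of the changes was not tested. The median of all genes moved by less than 0.1 under every scaling. Proc, Car4, Plin1, Ucp1 and Msr1 were not well above background on some arrays, so their differences there depend on the background. With 2 arrays a group, the members' 95% intervals from all 4 arrays all spanned 0.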
